A study of Mus musculus with 28 samples.

Results

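The genes described here encode 7 myosin light chains and 2 kinases that phosphorylate them: *Myl1*, *Myl2*, *Myl3*, *Myl4*, *Myl6*, *Myl6b*, *Mylpf*, *Mylk2* and *Mylk4*. They were chosen by name from the 55359 Ensembl genes present in both count tables, and all 9 passed the filter on low counts in each cohort. RNA-seq was performed on tibialis anterior (TA) muscle, a fast muscle of the lower hindlimb, from 28 C57BL/6N mice of 8 weeks in 7 groups of 4. Cohort G held WT mice and Dnm2 S619L/+ mice, which carry a heterozygous knock-in of a point mutation in dynamin 2, each genotype on placebo or on tamoxifen added to the diet. Cohort F held WT mice on placebo and Bin1 mck-/- mice, in which *Bin1* is deleted in muscle by a recombinase under the muscle creatine kinase promoter, on placebo or on tamoxifen. Both mutants are models of centronuclear myopathy and are called disease mice below. The libraries were stranded and made from polyadenylated RNA. Cohort G used 300 ng of input and fragmentation for 2 min and cohort F used 350 ng and 8 min, so mouse model and library protocol cannot be told apart between the cohorts. The labels give neither sex nor litter, and the p-values set differences between groups against the variation between mice. The recombinase acts in muscle fibers, so other cells of the muscle keep *Bin1*.

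A myosin motor of striated muscle consists of heavy chains whose lever arm is stiffened by an essential and a regulatory light chain. Fast fibers use the essential chain of *Myl1* and the regulatory chain of *Mylpf*, and slow fibers, like the heart ventricle, use *Myl3* and *Myl2*. *Myl4* encodes the essential chain of embryonic muscle and the heart atrium, and *Myl6* and *Myl6b* encode essential chains of smooth muscle and non-muscle cells, *Myl6b* being also found in slow fibers. Skeletal muscle light chain kinase, encoded by *Mylk2*, is activated by calcium and calmodulin during contraction, and phosphorylation of the regulatory chain increases the force at a given calcium level. *Mylk4* encodes a less studied member of the same kinase family that is abundant in striated muscle.

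Reads assigned to genes ranged from 24671835 to 35136327 per mouse in cohort F and from 15586333 to 109710886 in cohort G. *Bin1* read between 521 and 555.6 CPM (reads scaled to library size with TMM factors) in the WT mice of cohort F and between 36.0 and 62.1 CPM in its 8 Bin1 mck-/- mice. *Dnm2* carries a point mutation, so its level does not check the labels of cohort G. The 8 muscle identity genes, such as the actin gene *Acta1* and the creatine kinase gene *Ckm*, summed to between 51600 and 101500 CPM in every mouse, and none of them was at 0 in any group. In bulk muscle, fewer fibers of a type and less RNA per fiber cannot be told apart.

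Promoter windows are shown for the fast pair *Mylpf* and *Myl1*, which varied together across the mice, for the slow pair *Myl2* and *Myl3*, which moved apart in Dnm2 S619L/+ mice, and for *Mylk4*. Each is the 250 bases before a RefSeq transcription start in GRCm38.p6, written 5' to 3' on the strand of the gene. Of the 9 genes, 8 had at least 1 window, with 2 each for *Myl2* and *Myl6*. The windows lie at chr7:127211358-127211607 (plus strand) for *Mylpf*, chr1:66945057-66945306 (minus strand) for *Myl1*, chr5:122092474-122092723 and chr5:122092939-122093188 (plus strand) for the upstream and downstream starts of *Myl2*, chr9:110763428-110763677 (plus strand) for *Myl3* and chr13:32783965-32784214 (minus strand) for *Mylk4*. Capitals mark matches to 5 motifs searched on both strands, namely the E-box CANNTG, the MCAT element CATTCC, the TATA box TATAAA, and the MEF2 and CArG elements. No matches to different motifs overlapped in the windows printed.
Mylpf: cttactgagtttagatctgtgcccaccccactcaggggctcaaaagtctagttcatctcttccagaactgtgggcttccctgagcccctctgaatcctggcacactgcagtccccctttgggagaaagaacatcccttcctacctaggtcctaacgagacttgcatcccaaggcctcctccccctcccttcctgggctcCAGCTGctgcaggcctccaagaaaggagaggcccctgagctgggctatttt
Myl1: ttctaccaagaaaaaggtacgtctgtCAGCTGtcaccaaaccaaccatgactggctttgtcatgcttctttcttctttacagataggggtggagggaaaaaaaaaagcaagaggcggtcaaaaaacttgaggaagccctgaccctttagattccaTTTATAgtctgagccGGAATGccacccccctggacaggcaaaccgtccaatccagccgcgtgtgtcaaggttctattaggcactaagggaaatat
Myl2 upstream: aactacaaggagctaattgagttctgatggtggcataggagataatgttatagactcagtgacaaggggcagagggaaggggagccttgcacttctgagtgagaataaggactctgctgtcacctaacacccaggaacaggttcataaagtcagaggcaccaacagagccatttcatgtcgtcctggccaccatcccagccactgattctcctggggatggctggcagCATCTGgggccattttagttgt
Myl2 downstream: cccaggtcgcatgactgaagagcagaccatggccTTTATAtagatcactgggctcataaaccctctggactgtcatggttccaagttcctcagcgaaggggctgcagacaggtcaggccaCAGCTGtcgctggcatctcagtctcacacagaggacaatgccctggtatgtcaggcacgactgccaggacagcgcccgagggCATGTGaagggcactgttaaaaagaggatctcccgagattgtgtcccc
Myl3: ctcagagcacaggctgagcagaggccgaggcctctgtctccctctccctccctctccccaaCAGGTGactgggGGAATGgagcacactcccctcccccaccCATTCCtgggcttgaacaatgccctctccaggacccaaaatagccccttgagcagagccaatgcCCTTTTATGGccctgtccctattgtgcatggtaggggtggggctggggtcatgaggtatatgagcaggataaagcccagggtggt
Mylk4: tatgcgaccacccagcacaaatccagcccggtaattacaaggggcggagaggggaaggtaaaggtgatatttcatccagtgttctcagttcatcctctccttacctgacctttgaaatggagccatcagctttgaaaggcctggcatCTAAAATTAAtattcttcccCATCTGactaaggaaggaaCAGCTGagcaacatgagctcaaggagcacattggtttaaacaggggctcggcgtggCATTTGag

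The E-box, bound by myogenic factors, was present in each of these windows and in 66.2% of the 32851 promoter windows searched, so it does not set them apart. The window of *Myl3* held 2 MCAT elements and 1 CArG element, which starts 85 bases before the start site, whereas MCAT occurred in 12.6% and CArG in 1.47% of all windows. A CArG element also lies in 1 of the *Myl6* windows, which are not printed, starting 50 bases before the start site. The window of *Mylk4* held 1 MEF2 element, found in 2.92% of all windows, together with 3 E-boxes. *Myl1* held 1 MCAT element and 1 match to TATAAA (12.4% of windows). The upstream window of *Myl2* held an E-box alone, and its downstream window held 2 E-boxes and 1 match to TATAAA. Both TATAAA matches lie on the opposite strand, and they start 95 bases before the start site in *Myl1* and 216 in *Myl2*. These letters are a description of the windows and do not show that a factor binds there.

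Light chain reads made up between 0.978% and 1.98% of all gene reads in each mouse. Levels of different genes are compared here as CPM per kilobase of exon length. This length joins all annotated exons of a gene, used or not, with 1062 bases for *Mylpf*, 4637 for *Myl4* and 7689 for *Mylk4*. The order of the genes depends on it. *Mylpf* had the highest mean in all 7 groups, from 7276 to 10720 CPM per kb, followed by *Myl1* with 1532 to 2688 CPM per kb and by *Mylk2* with 206.5 to 552.8 CPM per kb. The ranges of *Mylpf* and *Myl1* did not overlap in any group. *Mylk2* and *Mylk4* overlapped in WT and Dnm2 S619L/+ mice on placebo in cohort G. *Mylk4* and then *Myl3* came next in 5 of the 7 groups. In the WT mice of cohort F *Myl3*, at 137.2 CPM per kb, was level with *Mylk4*, at 136.6 CPM per kb. In untreated Dnm2 S619L/+ mice the *Myl3* mean of 8.85 CPM per kb lay below *Myl6* at 16.9 CPM per kb, with overlapping ranges between *Myl6* and *Myl2* and between *Myl2* and *Myl3*. *Myl2*, *Myl4* and *Myl6b* took the lowest places in the same 5 groups, and their neighbours in the order overlapped there.

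**Figure D1:**
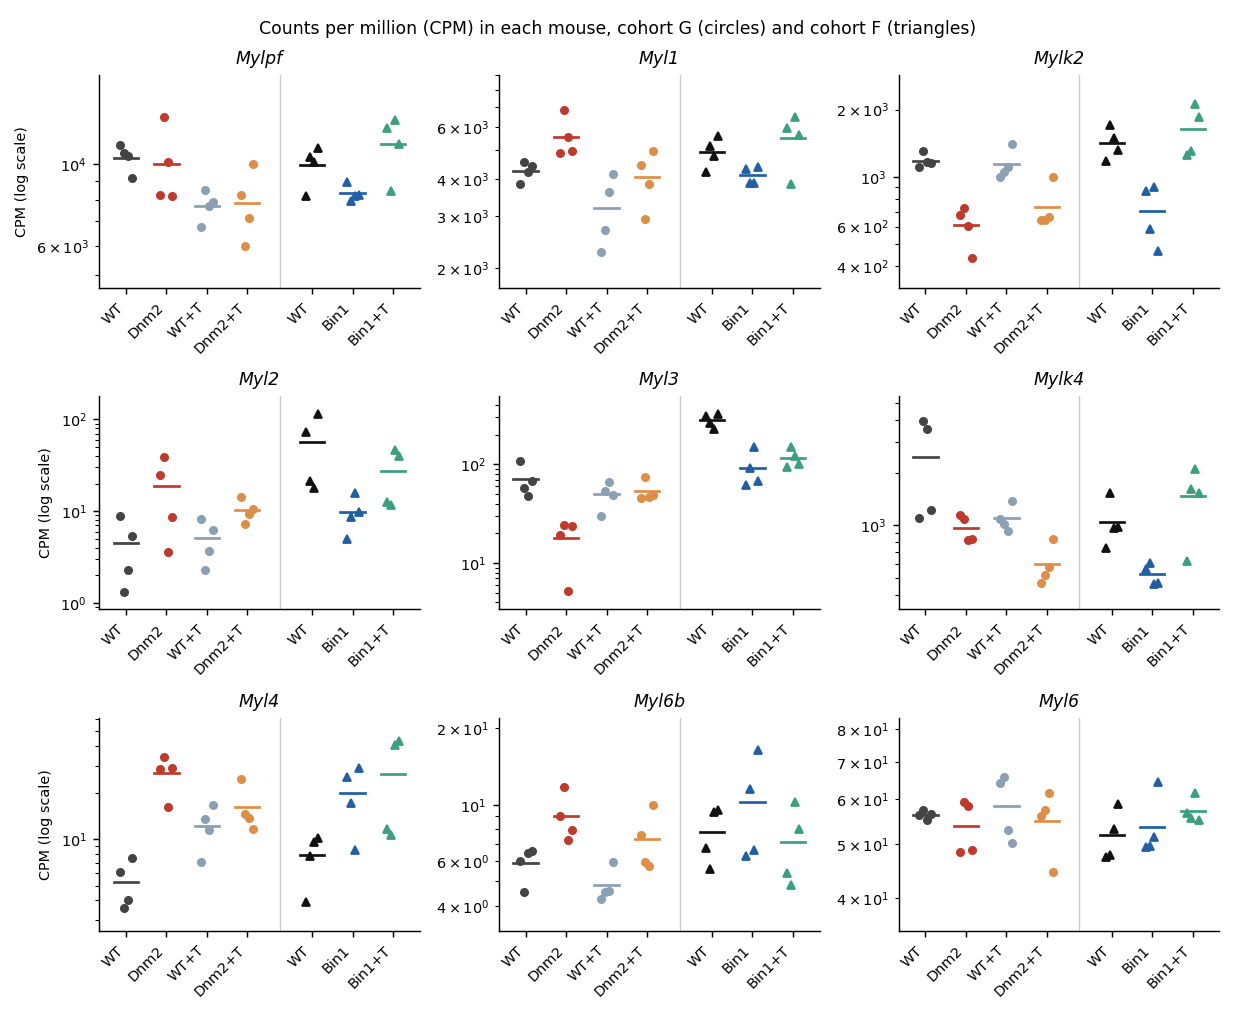
CPM on a log scale for each of the 9 genes, 1 point per mouse and a bar at the mean of the 4 mice, with cohort G as circles on the left, cohort F as triangles on the right and T for tamoxifen. *Myl3* lies below WT in the untreated disease mice of both cohorts, *Myl4* lies above WT in untreated Dnm2 S619L/+ mice, and the WT placebo mice of cohort G split into a high and a low pair for *Mylk4*.

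The comparison of untreated Dnm2 S619L/+ with WT mice asks what the mutation does to the muscle. Among the 9 genes, 6 changed, against 21.9% of the 15439 genes tested, with 3 higher (background 12.1%) and 3 lower (background 9.81%). The embryonic chain *Myl4*, the slow regulatory chain *Myl2* and *Myl6b* rose, the slow essential chain *Myl3* and both kinases fell, and the abundant fast chains did not pass the test. The median log2 fold change of the 9 genes was −0.06, beside 0.02 for all genes tested.

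*Myl4* read 6.12, 3.59, 4.03 and 7.5 CPM in the WT mice and 28.7, 34.0, 16.2 and 28.8 CPM in the Dnm2 S619L/+ mice. Every disease mouse was above every WT mouse. The log2 fold change was 2.32 ± 0.33 (SE, edgeR adjusted p = 0.000259), and it passed the test without any 1 of the 16 mice of the fit. *Myl6b* read 6.0, 4.55, 6.48 and 6.61 CPM in WT and 9.05, 11.8, 7.24 and 7.95 CPM in disease mice, again without overlap. The change was smaller, 0.61 ± 0.20 on the log2 scale (edgeR adjusted p = 0.0402), and 7 of 16 fits that left out 1 mouse no longer called it, those without WT mouse 1, 2 or 3, disease mouse 1, 2 or 4, or treated disease mouse 1, with an adjusted p of up to 0.134. *Myl6*, the essential chain of smooth muscle and other non-striated cells, stayed between 48.3 and 59.3 CPM in all 8 mice, with a log2 fold change of −0.07 ± 0.11.

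The slow pair moved in opposite directions. *Myl3* read 108.1, 57.6, 47.7 and 67.4 CPM in WT mice and 19.3, 24.2, 5.20 and 23.6 CPM in Dnm2 S619L/+ mice. The highest disease mouse was at 24.2 CPM and the lowest WT mouse at 47.7 CPM. *Myl3* fell by 1.96 ± 0.39 on the log2 scale (SE, edgeR adjusted p = 0.00312), and leaving out any 1 mouse kept the call. *Myl2* read 8.83, 1.33, 2.29 and 5.38 CPM in WT mice and 25.0, 38.8, 3.57 and 8.74 CPM in disease mice. Disease mice 1 and 2 were far above all WT mice, while mice 3 and 4 lay within the WT range. *Myl2* rose by 2.03 ± 0.66 on the log2 scale (edgeR adjusted p = 0.0386), which was no longer called without WT mouse 2, 3 or 4, disease mouse 1 or 2, or treated disease mouse 2, where the adjusted p reached 0.136.

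Among other slow fiber genes, more rose than fell. Of 12 slow fiber genes tested, 5 rose and 1 fell in Dnm2 S619L/+ mice, among them *Tnni1*, slow troponin I, by 3.33 ± 0.67 on the log2 scale (edgeR adjusted p = 0.00335), *Myh7*, the slow heavy chain, by 3.11 ± 0.84 (adjusted p = 0.0175), and *Tnnt1*, slow troponin T, by 1.93 ± 0.45 (adjusted p = 0.00794). *Pln*, an inhibitor of the slow calcium pump, fell by 0.87 ± 0.23 (adjusted p = 0.0166). The median over the list was 0.83 on the log2 scale. Of the 13 heavy chain genes tested, 2 rose and 3 fell. *Myh2*, the heavy chain of fast oxidative fibers, fell by 1.80 ± 0.32 (adjusted p = 0.00129), and *Myh4*, that of the fastest fibers, fell by 0.75 ± 0.24 (adjusted p = 0.033). *Myh1*, *Myh2*, *Myh4* and *Myh8* are close copies of each other, so their reads can be split uncertainly.

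**Figure D2:**
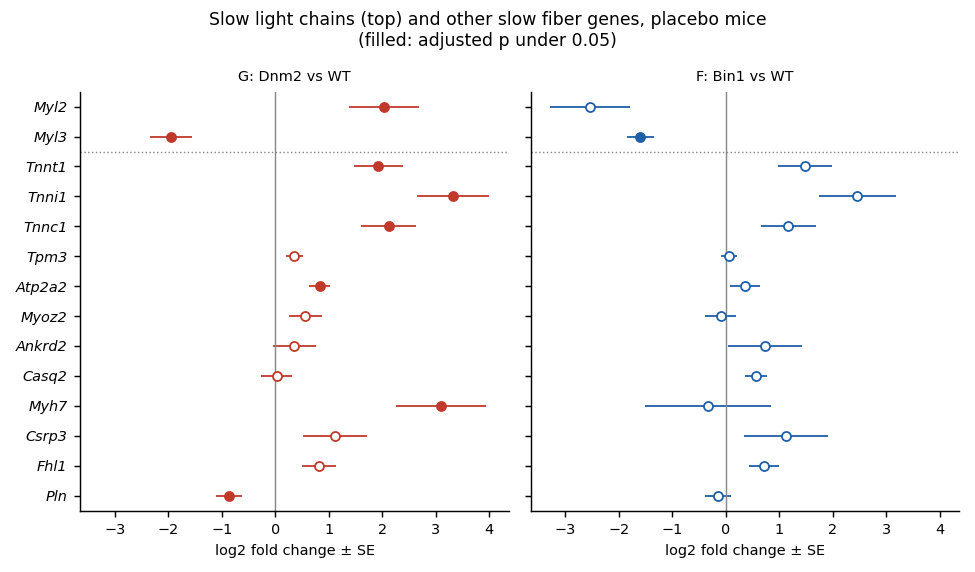
Log2 fold change with SE of untreated disease mice against WT for the slow light chains, above the dotted line, and the 12 other slow fiber genes, in cohort G on the left and cohort F on the right, with filled points for edgeR adjusted p under 0.05. *Myl3* lies at −1.96 and −1.60, and *Myl2* at 2.03 in cohort G and −2.54 in cohort F, where it was not called.

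The fast chains carried nearly all light chain reads. *Mylpf* read 11250, 10740, 10560 and 9179 CPM in WT and 8245, 13460, 10150 and 8209 CPM in Dnm2 S619L/+ mice. The groups overlapped, and the log2 fold change was −0.06 ± 0.17 (SE, edgeR adjusted p = 0.84). *Myl1* read 3859, 4574, 4235 and 4431 CPM in WT and 4919, 6851, 5556 and 4975 CPM in disease mice. Every disease mouse was above every WT mouse, but at 0.38 ± 0.19 on the log2 scale *Myl1* missed the threshold (edgeR adjusted p = 0.161). *Myl1* passed with library sizes alone (0.65, adjusted p = 0.00577), a scaling that moved the median of all genes by 0.268. It also passed with edgeR on libraries scaled to the muscle identity genes (0.41, adjusted p = 0.0312).

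Both kinases fell. *Mylk2* read 1113, 1301, 1170 and 1154 CPM in WT and 673.1, 727.7, 604.4 and 432.3 CPM in Dnm2 S619L/+ mice, without overlap. It fell by 0.96 ± 0.17 on the log2 scale (SE, edgeR adjusted p = 0.00152), in every fit that left out 1 mouse. *Mylk4* read 1099, 3936, 3566 and 1228 CPM in WT and 1141, 1085, 823.4 and 835.5 CPM in disease mice. WT mice 2 and 3 stood far above all others, and WT mouse 1 was below 1 of the disease mice. *Mylk4* fell by 1.34 ± 0.35 (SE, edgeR adjusted p = 0.0152), but not when either WT mouse 2 or WT mouse 3 was left out, where the adjusted p reached 0.0661. Of 13 further genes of light chain phosphorylation tested, 3 changed by edgeR in this comparison, all of them lower. Among them were *Mylk*, the smooth muscle light chain kinase, with −0.84 ± 0.27 (adjusted p = 0.0383), and *Calm3*, which encodes calmodulin, with −0.55 ± 0.19 (adjusted p = 0.0451). *Mylk3*, the cardiac kinase, and the subunits of myosin phosphatase on the list did not pass the test.

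Markers of other cells moved in the same comparison. Of 7 smooth muscle genes, 4 fell, and their sum ranged from 805.7 to 1085 CPM in Dnm2 S619L/+ and from 1377 to 1599 CPM in WT mice. Of 5 endothelial genes, 4 fell, with sums of 145.8 to 427.9 against 332.9 to 665.4 CPM. Of 6 immune genes tested, 3 rose, and the 8 genes of that list summed to 81.2 to 359.7 against 52.2 to 87.9 CPM. None of the 6 fibroblast genes passed by edgeR, 4 were higher at an unadjusted p under 0.05 and 3 by DESeq2, and their sums of 2146 to 2924 CPM lay above those of WT mice, at 1106 to 1606 CPM. No gene of these lists was at 0 in either group, and their part in the light chain results was not tested. Among 3 light chain relatives tested, *Myl9*, the regulatory chain of smooth muscle, fell by 0.62 ± 0.17 (edgeR adjusted p = 0.0187) and *Myl12a*, a non-muscle regulatory chain, rose by 0.78 ± 0.17 (adjusted p = 0.00576). Of 14 embryonic and denervation genes, 10 rose, among them *Runx1* with 3.39 ± 0.33 (adjusted p = 1.48e-05), while the embryonic and perinatal heavy chains *Myh3* and *Myh8* had values of 0.55 ± 0.26 (adjusted p = 0.138) and 0.03 ± 0.19 (adjusted p = 0.935).

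**Figure D3:**
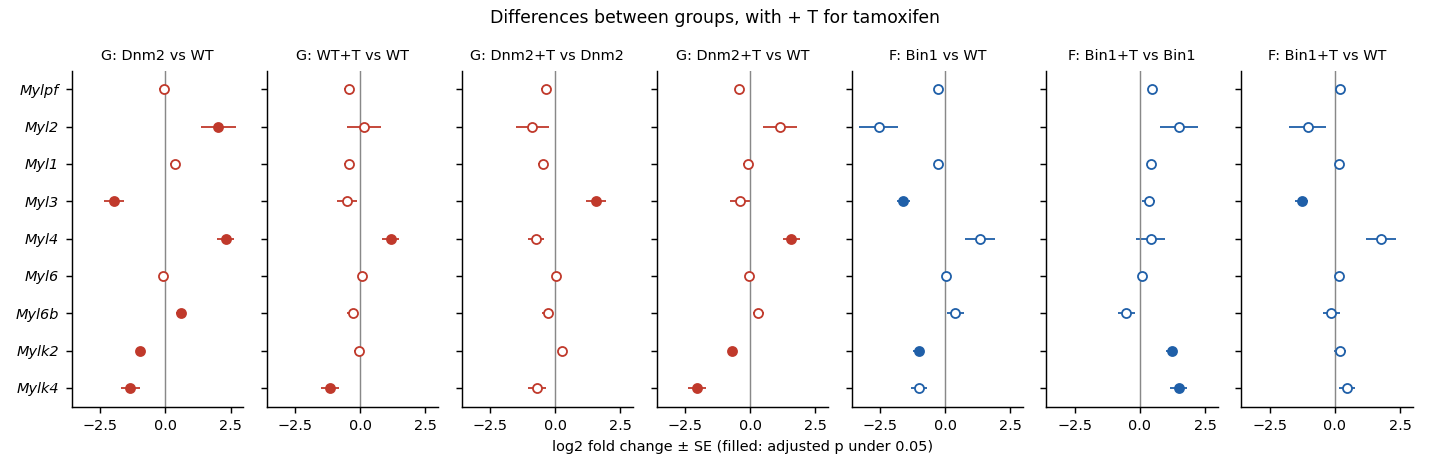
Log2 fold change with SE of the 9 genes in 7 comparisons, cohort G in red and cohort F in blue, with T for tamoxifen and filled points for edgeR adjusted p under 0.05. *Myl3* is filled below 0 in untreated disease mice of both cohorts, *Mylk2* and *Mylk4* are filled above 0 for tamoxifen in Bin1 mck-/- mice, and *Mylpf*, *Myl1* and *Myl6* are open throughout.

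Tamoxifen in WT mice changed 2 of the 9 genes, against 27.7% of all genes tested, with 1 higher (background 15.8%) and 1 lower (background 11.9%). This share is close to that of all genes. *Myl4* read 7.11, 13.5, 11.4 and 16.7 CPM on tamoxifen, where 3 of the 4 mice were above all WT mice on placebo. Its log2 fold change was 1.17 ± 0.32 (SE, edgeR adjusted p = 0.0139), and it was called without any 1 mouse. The 14 embryonic and denervation genes did not rise with it as a set. By edgeR 2 of them rose and 3 fell, with a median log2 fold change of −0.14. *Mylk4* read 1092, 1012, 932.3 and 1377 CPM on tamoxifen. These values lay around those of WT placebo mice 1 and 4, and the log2 fold change of −1.15 ± 0.35 (adjusted p = 0.024) was lost in 5 of 16 fits, those without WT placebo mouse 2 or 3 or treated WT mouse 1, 2 or 3, with an adjusted p of up to 0.102. For *Mylk4* it was also lost when libraries were scaled to muscle identity genes (−0.76, adjusted p = 0.0792).

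The fast pair had lower means in these mice and did not pass the test. *Mylpf* read 6781, 8537, 7696 and 7893 CPM on tamoxifen, below every WT placebo mouse, and was at −0.43 ± 0.17 on the log2 scale (SE, edgeR adjusted p = 0.0717, DESeq2 adjusted p = 0.0397). *Myl1* had a log2 fold change of −0.43 ± 0.19 (adjusted p = 0.107). *Mylk2* was at −0.06 ± 0.17 (adjusted p = 0.836). Scaled to the muscle identity genes, *Mylk2* rose instead, by 0.34 (adjusted p = 0.0189), with the median of all genes shifted by 0.415. None of the 13 further phosphorylation genes passed by edgeR, with 1 higher and 1 lower both at an unadjusted p under 0.05 and by DESeq2. Among the heavy chains, *Myh2* fell by 0.88 (adjusted p = 0.046), and 2 of 12 fast fiber genes fell.

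Bone, connective tissue and immune markers rose in the same libraries. The 8 bone genes summed to between 957.2 and 2569 CPM in WT mice on tamoxifen and between 30.6 and 60.0 CPM on placebo, and 7 of them rose. All 6 fibroblast genes rose, with sums of 13580 to 27000 against 1106 to 1606 CPM. Of 6 immune genes tested 5 rose, and the 8 genes of the list summed to 165 to 313.3 against 52.2 to 87.9 CPM. Of 7 smooth muscle genes 2 fell, with sums of 974.4 to 1176 against 1377 to 1599 CPM, and 1 of 6 erythroid genes rose. The muscle identity genes summed to between 51600 and 66150 CPM on tamoxifen and between 72310 and 78960 CPM on placebo. The part of these markers in the values of the light chains was not tested.

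Tamoxifen in Dnm2 S619L/+ mice changed 1 of the 9 genes, against 8.27% of all genes tested, and that gene was higher (background 5.22%). As a count, 1 of 9 is close to the share of all genes. *Myl3* read 45.6, 73.9, 46.8 and 49.4 CPM on tamoxifen, above every untreated disease mouse. The log2 fold change was 1.57 ± 0.39 (SE, edgeR adjusted p = 0.0238). The call was lost in 2 of 16 fits, those without treated mouse 2 or 3 (adjusted p up to 0.0916), and over all 16 the change was at least 1.27. *Myl2*, its partner in slow fibers, read 14.3, 7.29, 9.30 and 10.5 CPM, within the range of the untreated disease mice, with a log2 fold change of −0.88 ± 0.64 (adjusted p = 0.416). *Myl4* read 24.7, 14.6, 13.6 and 11.6 CPM and was at −0.74 ± 0.31 (adjusted p = 0.15). *Mylk2* was at 0.28 ± 0.17 (adjusted p = 0.34, and 0.0341 when scaled to the muscle identity genes) and *Mylk4* at −0.70 ± 0.35 (adjusted p = 0.226). Of the 13 further phosphorylation genes, *Mylk* alone passed by edgeR, rising by 1.17 (adjusted p = 0.0189). None of the 12 slow fiber genes passed by edgeR or DESeq2, or had an unadjusted p under 0.05. Bone genes summed to between 65.6 and 1832 CPM in the treated mice and between 13.6 and 26.1 CPM in the untreated ones, with 7 of 8 higher. Of 6 fibroblast genes 4 rose, with sums of 2589 to 20640 against 2146 to 2924 CPM. The part of these markers in the *Myl3* result was not tested.

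Treated Dnm2 S619L/+ mice were compared with the same WT placebo mice as above. In this comparison 3 of the 9 genes changed, against 28.9% of all genes tested, with 1 higher (background 15.8%) and 2 lower (background 13.1%). This count is close to the share of all genes. *Myl4* was higher than in WT by 1.58 ± 0.32 on the log2 scale (SE, edgeR adjusted p = 0.00257), without overlap. *Mylk2* read 642, 641.4, 664.7 and 1003 CPM in the treated mice, all below the WT minimum of 1113 CPM, and fell by 0.68 ± 0.17 (adjusted p = 0.009). *Mylk4* read 466.9, 518.9, 575.5 and 836.5 CPM, also below every WT mouse, and fell by 2.04 ± 0.36 (adjusted p = 0.00114). These 3 calls held in all 16 fits that left out 1 mouse. *Myl3* was at −0.39 ± 0.38 (adjusted p = 0.467) and *Myl2* at 1.16 ± 0.65 (adjusted p = 0.193). Of the 12 fast fiber genes 10 fell, and of the 12 slow fiber genes 3 rose. *Mylpf* and *Myl1*, the light chains of fast fibers, were at −0.41 ± 0.17 (adjusted p = 0.0837) and −0.08 ± 0.19 (adjusted p = 0.796). All 6 fibroblast genes, 7 of 8 bone genes and 5 of 6 immune genes tested rose in this comparison. Of 7 smooth muscle genes 3 fell, as did 1 of 5 endothelial genes and 3 of 8 muscle identity genes. The muscle identity genes summed to between 56040 and 88680 CPM in treated Dnm2 S619L/+ mice and between 72310 and 78960 CPM in WT mice. The part of all these markers in the values of the 9 genes was not tested.

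Whether tamoxifen acted differently in the genotypes was tested as an interaction. None of the 9 genes passed by edgeR, against 0.259% of all genes tested. At an unadjusted p under 0.05 there were 2 genes: *Myl4* with −1.91 ± 0.44 (unadjusted p = 0.00062, edgeR adjusted p = 0.0923) and *Myl3* with 2.08 ± 0.54 (unadjusted p = 0.00151, adjusted p = 0.129). DESeq2 called both, with adjusted p = 0.00351 for *Myl4* and 0.00873 for *Myl3*.

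In cohort F, untreated Bin1 mck-/- mice were compared with their own WT mice. Of the 9 genes 2 changed, against 2.61% of the 14841 genes tested, and both were lower (background 0.627%). These were *Myl3* and *Mylk2*, which also fell in Dnm2 S619L/+ mice. The median log2 fold change of the 9 genes was −0.27, beside 0.01 for all genes tested.

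*Myl3* read 309.3, 263.8, 229.4 and 319.4 CPM in WT and 61.7, 92.7, 148 and 67.3 CPM in Bin1 mck-/- mice, without overlap. It fell by 1.60 ± 0.25 on the log2 scale (SE, edgeR adjusted p = 0.0119). Without WT mouse 8 the adjusted p was 0.0512, and *Myl3* was called in every other fit that left out 1 mouse. *Myl2* read 73.3, 21.5, 18.1 and 115.1 CPM in WT and 5.03, 8.75, 15.7 and 9.79 CPM in Bin1 mck-/- mice. WT mice 5 and 8 were several times above WT mice 6 and 7, yet every disease mouse was below every WT mouse. At −2.54 ± 0.74 on the log2 scale *Myl2* missed the threshold (unadjusted p = 0.0072, edgeR adjusted p = 0.102), while DESeq2 gave an adjusted p of 0.00665. None of the 12 slow fiber genes passed by edgeR, 5 were higher at an unadjusted p under 0.05, and DESeq2 called 2 of them. *Tnni1* had a value of 2.46 ± 0.72 (adjusted p = 0.0998) and *Myh7* one of −0.33 ± 1.18 (adjusted p = 0.912).

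*Mylk2* read 1175, 1707, 1493 and 1325 CPM in WT and 866.5, 582.6, 904.3 and 465.5 CPM in Bin1 mck-/- mice. The groups did not overlap, and *Mylk2* fell by 1.02 ± 0.23 on the log2 scale (SE, edgeR adjusted p = 0.033), which was not called without disease mouse 1, 2 or 4 or WT mouse 6, 7 or 8 (adjusted p up to 0.116). *Mylk4* read 738.5, 1521, 967.7 and 974.9 CPM in WT and 565.6, 608.6, 460.2 and 465.3 CPM in disease mice, without overlap. Its log2 fold change was −1.0 ± 0.31, with an edgeR adjusted p of 0.101 and a DESeq2 adjusted p of 0.00953. *Myl4* read 3.89, 7.76, 9.56 and 10.2 CPM in WT and 25.2, 17.1, 8.48 and 28.8 CPM in disease mice, with a log2 fold change of 1.35 ± 0.57 (edgeR adjusted p = 0.225). Disease mouse 3 lay within the WT range. The fast chains *Mylpf* and *Myl1* were at −0.26 ± 0.15 (adjusted p = 0.378) and −0.27 ± 0.16 (adjusted p = 0.377). None of the 13 further phosphorylation genes passed by edgeR, 3 were lower at an unadjusted p under 0.05, and DESeq2 called 2 of them. Of 12 fast fiber genes 4 fell, among them *Actn3*, alpha-actinin of fast fibers, by 1.05 ± 0.24 (adjusted p = 0.0366).

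Markers of other cells moved here too. Of 4 adipocyte genes tested, 3 rose, and the 5 genes of the list summed to 27.3 to 91.3 CPM in Bin1 mck-/- and 2.88 to 5.48 CPM in WT mice, with *Lep* at 0 in the latter. Of 6 immune genes tested, 3 rose, and the 8 genes of the list summed to 130 to 259.2 against 39.7 to 65.2 CPM. Of 7 smooth muscle genes 1 rose. Their part in the values of *Myl3* and *Mylk2* was not tested.

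Tamoxifen in Bin1 mck-/- mice changed 2 of the 9 genes, both of them kinases and both higher (background 1.52%), against 3.13% of all genes tested. None of the 7 light chains passed by edgeR, *Mylpf* and *Myl1* had an unadjusted p under 0.05, and DESeq2 called *Mylpf* (adjusted p = 0.0263). *Mylk2* read 1249, 1300, 2120 and 1855 CPM on tamoxifen, and every treated mouse was above every untreated disease mouse. Its log2 fold change was 1.21 ± 0.23 (SE, edgeR adjusted p = 0.0129), called in all 12 fits that left out 1 mouse. *Mylk4* read 622.3, 1610, 2108 and 1521 CPM. Mouse 1 was just above the untreated maximum of 608.6 CPM and the other 3 were well above it. The log2 fold change was 1.48 ± 0.31 (adjusted p = 0.0282), and it was not called without any 1 of the 4 untreated disease mice or without treated mouse 3 or 4 (adjusted p up to 0.0888). Among the light chains, *Mylpf* was at 0.45 ± 0.15 (adjusted p = 0.119) and *Myl1* at 0.41 ± 0.16 (adjusted p = 0.157). Of 12 fast fiber genes, 3 rose by edgeR and 10 by DESeq2, among them *Actn3* with 1.05 ± 0.24 (adjusted p = 0.0305) and *Pvalb*, a calcium buffer of fast fibers, with 1.33 ± 0.28 (adjusted p = 0.0233). Of 14 embryonic and denervation genes, 2 fell.

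Other cell markers moved with the kinases in this comparison. Of 4 Schwann cell genes 2 fell, with sums of 15.02 to 29.9 CPM in treated and 38.1 to 86.8 CPM in untreated Bin1 mck-/- mice. Of 4 adipocyte genes tested 1 fell by edgeR and 4 by DESeq2, and the 5 genes of the list summed to 3.06 to 20.7 against 27.3 to 91.3 CPM, with *Lep* at 0 in the treated mice. Of 7 smooth muscle genes 1 fell, with sums of 973.2 to 1138 against 852.8 to 1391 CPM. None of 5 bone genes tested passed by edgeR or DESeq2, 1 was higher at an unadjusted p under 0.05, and the 8 genes of the list summed to 633 CPM in 1 treated mouse, with a median of 23.1 CPM over the 4. The part of these markers in the *Mylk2* and *Mylk4* results was not tested.

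Compared with the WT mice of cohort F, treated Bin1 mck-/- mice differed in 1 of the 9 genes, which was lower (background 0.384%), against 0.849% of all genes tested. *Myl3* read 94.4, 149.4, 120.2 and 101.7 CPM in the treated mice, below the WT minimum of 229.4 CPM. It fell by 1.27 ± 0.25 on the log2 scale (SE, edgeR adjusted p = 0.0349), although the call was lost without any 1 of the 4 WT mice, untreated disease mouse 2, or treated mouse 1, 3 or 4 (adjusted p up to 0.126). *Mylk2* was at 0.20 ± 0.22 (adjusted p = 0.739) and *Mylk4* at 0.48 ± 0.31 (adjusted p = 0.5). *Myl4* read 11.6, 10.6, 40.6 and 43.4 CPM, above every WT mouse, with 1.76 ± 0.58 (adjusted p = 0.208). Of 4 Schwann cell genes 1 fell, and its part in these values was not tested.

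**Figure D4:**
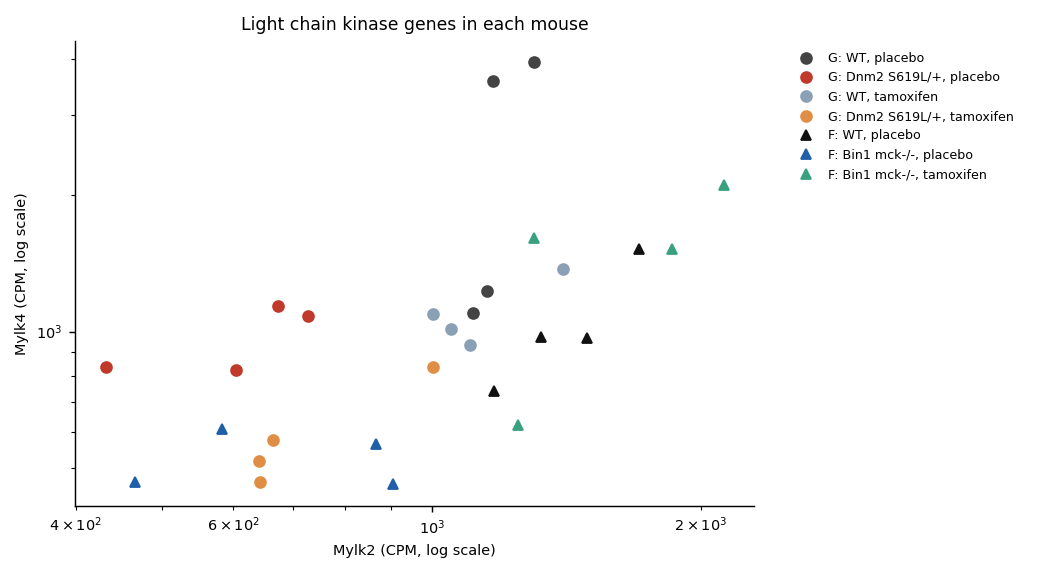
*Mylk4* against *Mylk2* in CPM on log axes, 1 point per mouse, with cohort G as circles and cohort F as triangles. Untreated disease mice of both cohorts lie at or below 904.3 CPM of *Mylk2*, and treated Bin1 mck-/- mice at or above 1249 CPM. Treated Dnm2 S619L/+ mice lie at the lower left near untreated Bin1 mck-/- mice, apart from treated Dnm2 S619L/+ mouse 4 at 1003 CPM of *Mylk2*.

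The cohorts were set against each other in 1 fit of all 28 mice, each with its own WT mice. For the effect of disease, none of the 9 genes differed between the cohorts by edgeR, against 0.312% of the 16036 genes tested. *Myl2* came closest, with a difference of 4.55 ± 1.03 on the log2 scale (SE, unadjusted p = 0.000207, edgeR adjusted p = 0.0548), being 2.03 in cohort G and −2.54 in cohort F. The WT placebo means of *Myl2* were themselves far apart, at 4.46 CPM in cohort G and 57.0 CPM (SD 46.3) in cohort F. Those of the untreated disease mice, 19.0 CPM in cohort G and 9.81 CPM in cohort F, lay closer together. *Myl1* was the only other gene of the 9 at an unadjusted p under 0.05 (0.64 ± 0.25, unadjusted p = 0.0174). DESeq2 called *Myl2* (adjusted p = 0.000964). *Myl3* and *Mylk2* had differences of −0.36 ± 0.49 (adjusted p = 0.804) and 0.05 ± 0.29 (adjusted p = 0.966).

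For the effect of tamoxifen in disease mice, 1 of the 9 genes differed, being lower in cohort G (background 0.655%), against 1.71% of all genes tested. The difference for *Mylk4* was −2.14 ± 0.50 on the log2 scale (SE, edgeR adjusted p = 0.041), with −0.70 in Dnm2 S619L/+ and 1.48 in Bin1 mck-/- mice. Leaving out 1 mouse ended the call in 11 of 28 fits (adjusted p up to 0.103). In cohort F these were untreated disease mice 1, 2 and 4, treated disease mice 3 and 4 and WT mouse 7, and in cohort G untreated disease mice 2 and 4 and treated disease mice 1, 2 and 3. *Mylk2*, *Myl1* and *Mylpf* were at −0.90 ± 0.29 (adjusted p = 0.0735), −0.85 ± 0.25 (adjusted p = 0.0605) and −0.77 ± 0.23 (adjusted p = 0.0599). Model and library protocol change together between the cohorts and cannot be told apart. Bone genes summed to 65.6 to 1832 CPM in treated Dnm2 S619L/+ and 18.85 to 633 CPM in treated Bin1 mck-/- mice. Their part in the difference was not tested.

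The slow share was then taken within each chain type as *Myl2* reads over *Myl2* and *Mylpf* reads, and as *Myl3* reads over *Myl3* and *Myl1* reads. Such a share does not depend on the scaling of libraries. The essential share was 2.73%, 1.24%, 1.11% and 1.5% in the WT mice of cohort G and 0.391%, 0.352%, 0.0936% and 0.473% in untreated Dnm2 S619L/+ mice. On tamoxifen it was 1.01%, 2.47%, 1.20% and 0.980%, above all untreated Dnm2 S619L/+ mice. In cohort F it was 6.84%, 4.84%, 4.56% and 5.39% in WT mice, against 1.41%, 2.33%, 3.69% and 1.51% in untreated and 1.56%, 3.74%, 1.81% and 1.76% in treated Bin1 mck-/- mice. Each of these 4 separations, of both untreated disease groups from WT, of treated from untreated Dnm2 S619L/+ mice and of treated Bin1 mck-/- mice from WT, had an exact two-sided permutation p of 0.0286 with 4 mice a group. This is the smallest p the design allows, and over the 14 share tests the adjusted p was 0.08.

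The regulatory share was lower throughout, with no mouse above 1.03%. It was 0.0784%, 0.0124%, 0.0217% and 0.0586% in the WT mice of cohort G and 0.302%, 0.287%, 0.0352% and 0.106% in untreated Dnm2 S619L/+ mice, with an exact permutation p of 0.0857 (adjusted 0.171, 4 mice a group). In cohort F it was 0.884%, 0.204%, 0.177% and 1.03% in WT and 0.056%, 0.11%, 0.19% and 0.118% in untreated Bin1 mck-/- mice, with an exact permutation p of 0.0571 (adjusted 0.133, 4 mice a group). In treated Dnm2 S619L/+ mice it ranged from 0.104% to 0.173%, above every WT mouse, with an exact permutation p of 0.0286 (adjusted 0.08, 4 mice a group). The other 7 share comparisons had exact permutation p of 0.229 or more.

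**Figure D5:**
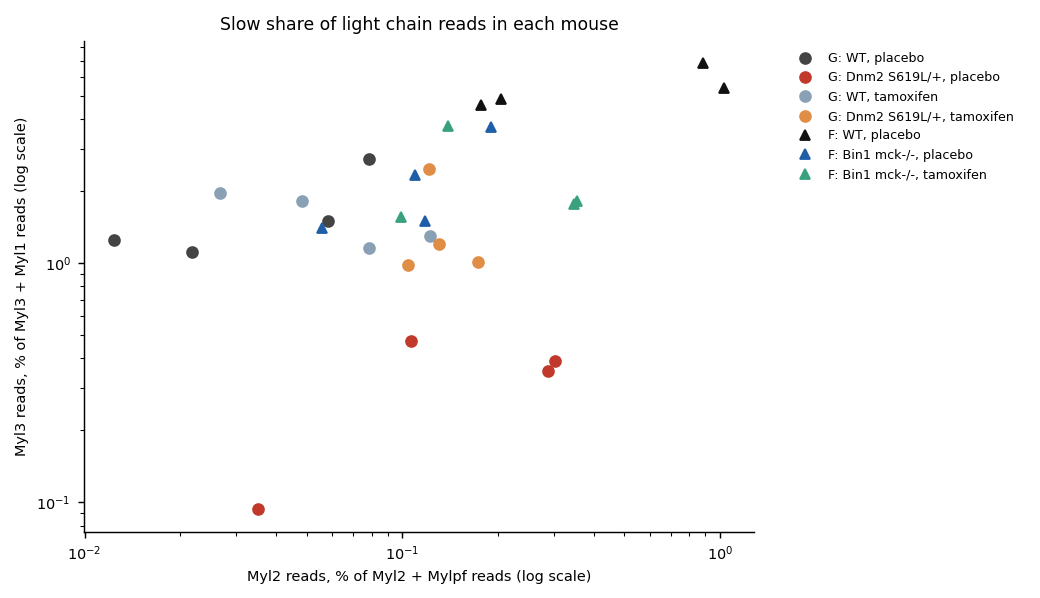
*Myl3* share of essential chain reads against *Myl2* share of regulatory chain reads, in percent on log axes, 1 point per mouse with the groups in the legend. Untreated Dnm2 S619L/+ mice lie lowest on the essential axis, at 0.473% or less, and the WT mice of cohort F highest, at 4.56% or more.

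Across the 28 mice, with log2 CPM centred on the WT placebo mice of each cohort, the closest pairs among the 9 genes were *Myl1* and *Mylpf* (Pearson r = 0.71, and 0.76 within groups) and *Mylk2* and *Mylk4* (r = 0.69, and 0.51 within groups). *Myl2* and *Myl3* had r = 0.23, and 0.46 within groups. *Myl3* and *Myl4* ran most against each other, with r = −0.53 over all mice but 0.07 within groups. Among 12189 other genes with a mean of at least 1 CPM, *Mylk2* was most like *Smyd2*, a lysine methyltransferase (r = 0.95), and *Mylk4* most like *Ahctf1*, a nuclear pore factor (r = 0.92). *Mylpf* was most like *Arl3* (r = 0.91) and *Myl1* most like *Rtn4*, a reticulon of the endoplasmic reticulum (r = 0.93). *Myl6b* was most like the slow troponin genes *Tnni1* (r = 0.82) and *Tnnt1* (r = 0.78). *Myl4* was most like *Armh4* (r = 0.87), *Myl2* most like *Zfpl1* (r = 0.79) and *Myl6* most like *Gas8* (r = 0.74). *Myl3* was most like *Fgfr4* (r = 0.70), *Pax7*, a factor of muscle stem cells (r = 0.68), and *Myh2* (r = 0.68). Within groups these 3 values fell to 0.19, 0.30 and 0.50, and no slow fiber gene was among its 3 closest. For the closest gene of the other members, r within groups was 0.88 for *Mylk2*, 0.79 for *Mylk4*, 0.84 for *Mylpf* and 0.85 for *Myl1*. It was 0.79 for *Myl6b*, 0.69 for *Myl4*, 0.52 for *Myl2* and 0.75 for *Myl6*. The points of these correlations share libraries and groups, and the values are descriptions.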

How the data were processed

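The submitters' processing notes name bcl2fastq 2.20.0.422, cutadapt 1.10, Bowtie 1.2.2, STAR 2.5.3, HTSeq 0.6.1p1 and build mm39. The role of each tool and the strand setting of the counting are not given in the sources used here, so reads of overlapping genes can be split uncertainly. The deposited values are raw counts per Ensembl gene for each mouse, in 1 table per cohort, made by the authors without normalization. Lines that name no gene held between 22.01% and 30.78% of the entries in cohort F and were left out. Symbols were matched for 52083 of 55359 gene identifiers in cohort F and of 55416 in cohort G.

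Each cohort was fitted across its groups with the quasi-likelihood test of edgeR 4.0.16 (R 4.3.3, limma 3.58.1, TMM, default filter on low counts, robust), and differences between cohorts were fitted over all 28 mice. All adjusted p-values are Benjamini-Hochberg values over all genes of a fit, called under 0.05. The SE is the log2 fold change over the square root of F. Levels between genes were divided by exon length. For slow shares, exact permutation tests (two-sided) were run between groups and adjusted over the 14 of them. Samples were grouped by genotype, treatment and cohort from the labels. All 9 genes and fixed lists of fiber, heavy chain, phosphorylation and cell markers were described, members named throughout and other genes as examples of their list, and the members and lists were chosen with earlier results of these data known. For the search of similar genes, 0.5 was added to CPM before the log. The fit was tested on simulated data with 200 changed genes. In the comparison of Bin1 mck-/- with WT (14841 genes) 83% of 4-fold and 58% of 2-fold changes were recovered, and 6.62% of the genes called were unchanged. In the comparison of Dnm2 S619L/+ with WT (15439 genes) the shares were 83%, 53% and 9.93%.

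Alternatives were DESeq2 1.42.0, RLE or no composition factors, no filter, the study's filter (over 10 reads in 90% of mice), fits of only the groups compared, a replicate block, leaving out each mouse and, chosen after seeing the data, scaling to muscle identity genes. No replicates were within sampling noise of each other, the lowest chi-square per gene being 15.6. Promoters came from RefSeq on another build than the counts. The value of 1 gene of the phosphorylation list is not reported here.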

Additional observations from a re-analysis of the deposited data

Results flagged for a closer look

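Among 77 sets of 4 mice (9 genes and 2 shares in 7 groups), 5 held a mouse far from the other 3 by Dixon's test, which chance gives in about 1 set in 20. *Myl3* in Dnm2 S619L/+ mouse 2 on tamoxifen read 73.93 CPM, with the other 3 between 45.6 and 49.4 CPM, and the slow essential share of the same mouse was 2.472%, with the others at 1.20% or less. The slow essential share of Bin1 mck-/- mouse 2 on tamoxifen was 3.739%, with the others at 1.81% or less. *Mylk2* in Dnm2 S619L/+ mouse 4 on tamoxifen read 1003 CPM, with the others at 664.7 CPM or less. *Myl6* in untreated Bin1 mck-/- mouse 4 read 64.41 CPM, with a group median of 50.5 CPM. The effect of tamoxifen on *Mylk4* in disease mice differed between the cohorts in the test of the difference itself, by −2.14 ± 0.50 on the log2 scale (SE, edgeR adjusted p = 0.041), lower in cohort G. *Mylk4* lay above the untreated disease mice in 4 of 4 treated Bin1 mck-/- mice, while treated and untreated Dnm2 S619L/+ mice overlapped.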

How the results depend on the processing

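The number of the 9 genes called changed with the processing as follows, and the cause was not tested. Fits that leave out a mouse or a group also hold fewer mice. Without a filter on low counts, the number was 3 in place of 6 in Dnm2 S619L/+ against WT mice, 1 in place of 2 for tamoxifen in WT and in Bin1 mck-/- mice, and 0 in place of 1 for tamoxifen in Dnm2 S619L/+ mice, for treated Bin1 mck-/- against WT mice and for the tamoxifen difference between cohorts. With DESeq2 it was 2 in place of 0 for the interaction, 3 in place of 2 for tamoxifen in WT and in Bin1 mck-/- mice, 4 in place of 2 for Bin1 mck-/- against WT mice, 1 in place of 0 for the disease difference between cohorts and 4 in place of 1 for the tamoxifen difference. With library size alone it was 7 in place of 6 in Dnm2 S619L/+ against WT mice, 4 in place of 3 for treated Dnm2 S619L/+ against WT mice, 1 in place of 2 for tamoxifen in WT mice, 0 in place of 1 for treated Bin1 mck-/- against WT mice and 2 in place of 0 for the disease difference, which was 1 with the study's filter. With only the groups compared it was 4 in place of 6 in Dnm2 S619L/+ against WT mice, 3 in place of 2 in Bin1 mck-/- against WT mice, and 0 for tamoxifen in Dnm2 S619L/+ and 0 in Bin1 mck-/- mice. Scaled to muscle identity genes, a choice made after seeing the data, it was 7 in place of 6 in Dnm2 S619L/+ against WT mice, 2 in place of 1 for tamoxifen in Dnm2 S619L/+ mice and 0 in place of 1 for treated Bin1 mck-/- against WT mice and for the tamoxifen difference, and *Mylk2* turned from −0.06 to 0.34 for tamoxifen in WT mice.

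Leaving out 1 mouse, the number ranged from 3 to 6 in Dnm2 S619L/+ against WT mice, from 1 to 3 for tamoxifen in WT mice, from 0 to 1 for tamoxifen in Dnm2 S619L/+ mice, from 3 to 4 for treated Dnm2 S619L/+ against WT mice, from 0 to 2 for the interaction, from 0 to 3 for Bin1 mck-/- against WT mice, from 1 to 4 for tamoxifen in Bin1 mck-/- mice, from 0 to 1 for treated Bin1 mck-/- against WT mice and for the disease difference, and from 0 to 4 for the tamoxifen difference. Of 1548 single gene values, 1476 stayed on their side of the threshold. *Myl2* was called in the disease difference in 2 of 28 such fits, with an adjusted p of 0.0184 at the lowest.

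Whether the replicate numbers pair the mice was not tested. In cohort G, the correlation of deviations of the 24 same-numbered pairs ranged from −0.395 to 0.424. Its mean was 0.004, and 9 pairs were over 0.1. In cohort F, it ranged from −0.222 to 0.203 over 4 pairs, with a mean of −0.041 and 1 pair over 0.1. With the replicate block the number was 1 in place of 2 for tamoxifen in WT and in Bin1 mck-/- mice, *Mylk4* being lost in both (adjusted p = 0.0583 and 0.0509), and no other call of the paired fits changed.

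Genes called also varied across the alternatives other than leaving out 1 mouse. They ranged from 1937 to 5275 in Dnm2 S619L/+ against WT and from 3417 to 4914 for tamoxifen in WT. Treated Dnm2 S619L/+ against WT gave 3038 to 6562, tamoxifen in Dnm2 S619L/+ 30 to 1882 and the interaction 10 to 327. Bin1 mck-/- against WT gave 345 to 1458, tamoxifen in Bin1 mck-/- 122 to 1223 and treated Bin1 mck-/- against WT 88 to 544. The range was 13 to 368 for the disease difference and 56 to 1328 for the tamoxifen difference. The values 30, 1458 and 122 came from fits of only the groups compared, which hold fewer mice. *Myl2* had as few as 29 reads in a mouse, in WT placebo mouse 3 of cohort G, where 15586333 reads fell on genes, and 47 in WT placebo mouse 2, where 43085604 did.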

Other observations

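Per length, the essential chain of fast fibers varied against its regulatory partner. The ratio of *Myl1* to *Mylpf* per kb of exon was between 0.261 and 0.310 in untreated Dnm2 S619L/+ mice. It was between 0.176 and 0.247 in the WT placebo mice of cohort G, without overlap, a comparison made after the values were seen. On tamoxifen it was 0.248 to 0.277 in Dnm2 S619L/+ and 0.161 to 0.270 in WT mice. In cohort F, untreated Bin1 mck-/- mice (0.2406 to 0.2725) overlapped WT mice (0.2417 to 0.2625). *Bin1*, the gene deleted in the other cohort, read between 719.7 and 1085 CPM in untreated Dnm2 S619L/+ and between 486.8 and 507.6 CPM in WT mice, and it rose by 0.81 ± 0.15 on the log2 scale (SE, edgeR adjusted p = 0.00176).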
